A study of Homo sapiens with 6 samples.

Results

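NKX6-3 and ANK1 are neighbouring genes on chromosome 8 at a locus where common variants are associated with type 2 diabetes, and they make up 2 of the 16792 genes in the deposited table. They were taken by their symbols. Both were chosen by their measured normalized counts, which were high in EndoC-βH1 cells given siRNA against MNX1 when set beside cells given a non-targeting siRNA. That contrast is therefore described for them with no test, and tests are given for their neighbours and relatives only. The association with diabetes rests on genetics outside these data and could not be checked here.

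The series holds 6 RNA libraries of EndoC-βH1, spelled EndoCBH1 by the submitters. It is a line of human beta cells made from fetal pancreas by targeted oncogenesis. The siMNX1 group (3 libraries) is labelled as an MNX1 knockdown, and the siNT group (3 libraries) is labelled wild type and received the non-targeting control. All libraries came from 5 ng of total RNA. The labels used here do not give the time after transfection, the siRNA sequences or whether replicates were separate cultures, so the p-values below reflect the spread among these 6 libraries alone, which may be technical.

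NKX6-3 encodes a homeodomain transcription factor of the NK6 family, whose best known islet member, NKX6-1, maintains beta cell identity. In the mouse, Nkx6-3 is a factor of the antral stomach, where its loss leaves fewer gastrin cells and more somatostatin cells. ANK1 encodes the ankyrin first known from red cells, an adaptor that ties membrane proteins to the spectrin skeleton beneath the membrane, and short forms made from an internal start are known from striated muscle. Both genes have been put forward as the one through which the diabetes variants act.

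Values are the authors' normalized counts. The values of a library summed to between 18406479 and 18704645, a total set by the scaling that gives no depth. MNX1 itself had 1885, 1708 and 1751 normalized counts in siMNX1 replicates 1 to 3, against 2039, 2033 and 1988 in siNT replicates 1 to 3. Every siMNX1 library lay below every siNT library, as for 12.1% of all genes, but the log2 difference of -0.18 did not pass an adjusted p of 0.05 (limma, adjusted p = 0.116). SST, which encodes somatostatin, was 3.90-fold higher in siMNX1 cells (log2 difference 1.96, SE 0.085, limma, adjusted p = 3.97e-06). PERCC1, the study's proposed link between MNX1 and SST, was 19.0-fold higher (log2 difference 4.24, SE 0.159, limma, adjusted p = 2.47e-06). Over the 4770 genes with a mean of at least 1000, siMNX1 replicate 2 lay farthest from its group's mean, with a root mean square log2 deviation of 0.103, where the other 5 libraries had 0.063 to 0.081. All 13 beta cell markers on the list used here were measured.

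NKX6-3 (ENSG00000165066, chromosome 8, 41645178 to 41650669, minus strand, GRCh38) stood at about double its control level in the siMNX1 libraries. It had 9700.3, 11042 and 10011.5 normalized counts in siMNX1 replicates 1 to 3, against 5331, 5014 and 5034 in siNT replicates 1 to 3. All siMNX1 libraries were high and the groups did not overlap. The means were 10251 ± 702 in siMNX1 and 5126 ± 177 in siNT (SD, n = 3 each), a 2.00-fold difference of means and a log2 difference of 1.00. On the log2 scale the lowest siMNX1 library lay 0.86 above the highest siNT library, while the libraries spanned 0.19 within siMNX1 and 0.09 within siNT.

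ANK1 (ENSG00000029534, chromosome 8, 41653220 to 41896762, minus strand) was also high in the siMNX1 libraries, by a smaller factor. It had 2790.1, 2479.9 and 2734 normalized counts in siMNX1 replicates 1 to 3, against 1824, 1645 and 1792 in siNT replicates 1 to 3. Again no siMNX1 library fell among the siNT libraries. The means were 2668 ± 165 in siMNX1 and 1754 ± 95.1 in siNT (SD, n = 3 each), a 1.52-fold difference of means and a log2 difference of 0.60. The gap between the groups was 0.44 on the log2 scale, against spans of 0.17 within siMNX1 and 0.15 within siNT. Without siMNX1 replicate 2 the log2 differences were 0.94 for NKX6-3 and 0.66 for ANK1. Both members had every siMNX1 library above every siNT library, as did 12.0% of all genes. In RNA from whole cultures, a change in the share of cells that make a transcript and a change in RNA per cell cannot be told apart.

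**Figure D1:**
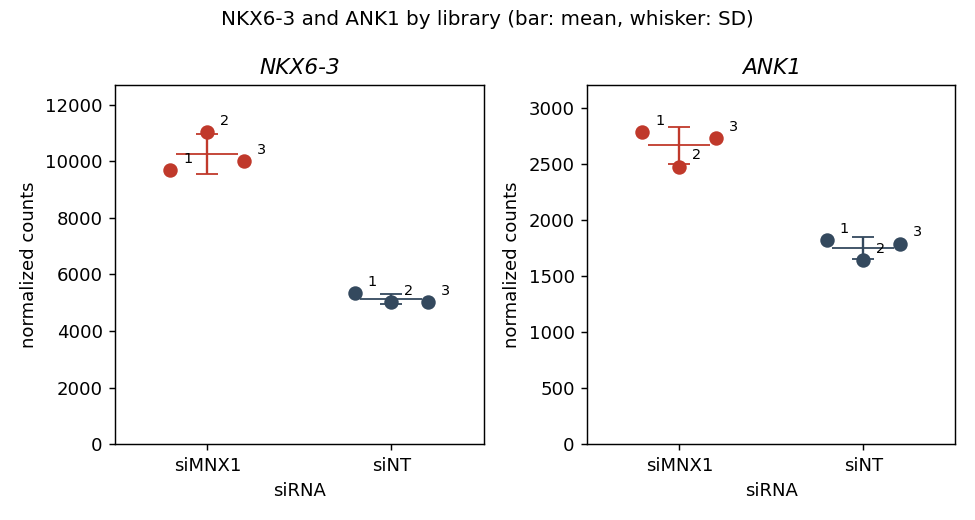
NKX6-3 (left) and ANK1 (right) in normalized counts for each library, siMNX1 in red and siNT in dark blue, with the replicate number beside each point, the group mean as a bar and the SD as whiskers. NKX6-3 averaged 10251 in siMNX1 and 5126 in siNT, and ANK1 averaged 2668 in siMNX1 and 1754 in siNT.

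The proportion of the genes to each other also differed between the groups. Within a library, NKX6-3 had 3.48, 4.45 and 3.66 times the normalized counts of ANK1 in siMNX1 replicates 1 to 3, against 2.92, 3.05 and 2.81 times in siNT replicates 1 to 3. The ratio was higher in every siMNX1 library than in any siNT library, and highest in siMNX1 replicate 2, which had the most NKX6-3 and the least ANK1 of its group. The log2 difference of NKX6-3 exceeded that of ANK1 by 0.39, and by 0.29 without that library. Per kilobase of annotated exon, which allows for their different lengths (2412 bases for NKX6-3 and 10797 for ANK1), NKX6-3 was 17.3 ± 2.32 times as abundant as ANK1 in siMNX1 and 13.1 ± 0.533 times in siNT (SD, n = 3 each).

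Both genes are expressed well above the middle of the table. Over the 6 libraries NKX6-3 ranked 262 and ANK1 ranked 1973 by mean normalized counts. A total of 204 genes had a larger log2 difference than NKX6-3, and 614 a larger one than ANK1. Among the 4770 genes with a mean of at least 1000, these numbers were 4 and 21. The 4 were the fibronectin gene FN1, the GABA receptor gene GABRA2, the glucuronidation enzyme gene UGT2B7 and the complement gene C4A, named after their values were seen.

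**Figure D2:**
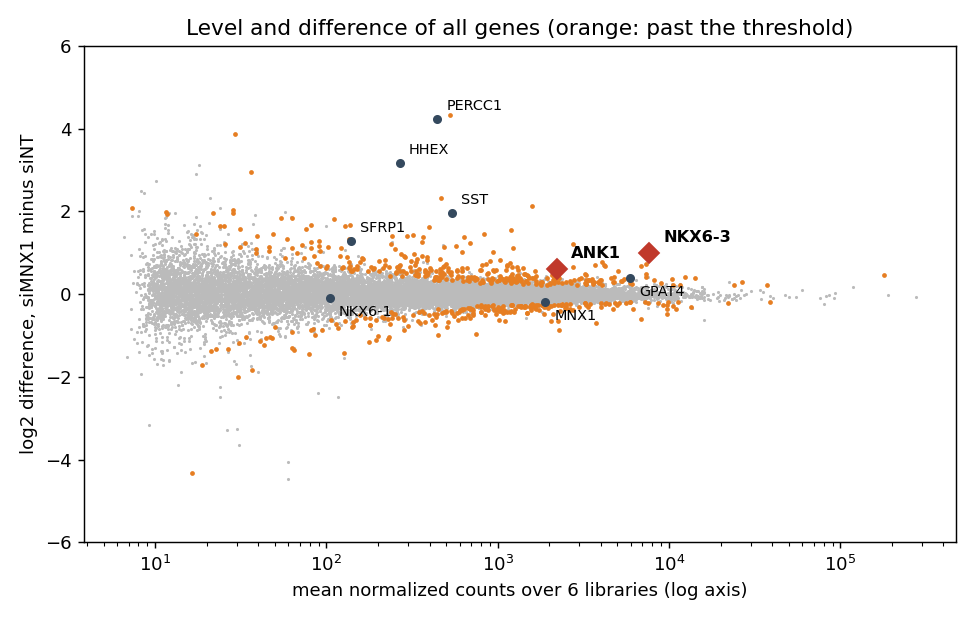
Log2 difference (siMNX1 minus siNT) against mean normalized counts over 6 libraries (log axis), 1 point a gene, with genes past an adjusted p of 0.05 in orange, NKX6-3 and ANK1 as red diamonds and 7 named genes in dark blue. NKX6-3, at 1.00, and ANK1, at 0.60, lie toward the upper edge of the genes of like abundance.

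The genes lie head to tail on the minus strand. ANK1 ends 2.55 kb upstream of the start of NKX6-3, and their annotated exons share 0 bases. GENCODE 29 lists 14 transcripts of ANK1, of which 10 are coding. Of these, 3 span more than 100 kb and 5 span less than 15 kb. The deposited values are per gene, so long and short ANK1 forms were not separated. A non-coding transcript on the opposite strand, ENSG00000253389 (AC113133.1 in GENCODE 29, 41660991 to 41665566), covers the starts of 5 short coding forms of ANK1.

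Transcription was then compared at the other genes of this stretch. Limma called 3 of the 13 tested neighbours within 500 kb of either gene higher in siMNX1 (23.1%) and 0 lower. At an unadjusted p under 0.05 there were 4, these 3 and the non-coding ENSG00000264578, which was lower (log2 difference -4.07). Over all tested genes 3.32% were called, 1.99% as higher and 1.33% as lower. At an unadjusted p under 0.05 the shares over all genes were 9.81% higher and 8.56% lower. The 3 higher neighbours were the ANK1 antisense transcript, GPAT4 and SFRP1, and each kept its call when any single library was left out. The antisense transcript shares exon bases with ANK1, a gene chosen as high. Its call, counted in the 23.1%, may therefore not be independent of that choice.

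The antisense transcript ENSG00000253389 had 276, 268 and 299.8 normalized counts in siMNX1 replicates 1 to 3, against 144, 181 and 149 in siNT replicates 1 to 3. All siMNX1 libraries were high and the groups did not overlap (log2 difference 0.83, SE 0.120, limma, adjusted p = 0.00641). Of its 1374 exon bases, 842 (61.3%) are also exon bases of ANK1. The handling of strand is not given in the sources used here. It is therefore unknown whether reads on the shared bases were separated from those of ANK1.

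GPAT4, an enzyme of the endoplasmic reticulum that starts glycerolipid synthesis, lies on the plus strand and ends 20.2 kb from the end of NKX6-3 (41577187 to 41625001). It had 6513, 6965 and 6731 normalized counts in siMNX1 replicates 1 to 3, against 5299.9, 5026 and 5011 in siNT replicates 1 to 3. All siMNX1 libraries exceeded all siNT libraries, a 1.32-fold difference of means (log2 difference 0.40, 95% interval 0.29 to 0.50, limma, adjusted p = 0.00206). The call was lost when the variance was not allowed to trend with level (limma, adjusted p = 0.0529).

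SFRP1, a secreted antagonist of WNT signalling, lies 336 kb from NKX6-3 (41261958 to 41309497, minus strand). It had 189, 216 and 189.9 normalized counts in siMNX1 replicates 1 to 3, against 96.6, 82.6 and 64.5 in siNT replicates 1 to 3. The groups did not overlap, and the log2 difference was 1.29 (95% interval 0.92 to 1.66, limma, adjusted p = 0.00326).

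The remaining coding genes of the stretch did not pass the test. Between SFRP1 and GPAT4 lie the palmitoyltransferase partner GOLGA7 and GINS4, a subunit of the replicative helicase, with log2 differences of 0.03 and 0.24 that did not pass (limma, adjusted p = 0.869 and 0.345). Beyond ANK1, the acetyltransferase gene KAT6A averaged 1367 ± 250 in siMNX1 and 1151 ± 73.7 in siNT (log2 difference 0.23, limma, adjusted p = 0.31). The difference was 0.09 for KAT6A without siMNX1 replicate 2 and 0.10 for GINS4 without siMNX1 replicate 1. The adaptor subunit gene AP3M2, the kinase gene IKBKB, the repair polymerase gene POLB and the mitochondrial porin gene VDAC3 had log2 differences of -0.12, -0.00, -0.22 and -0.06, and 0 of these 4 reached an unadjusted p below 0.05 in limma.

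The other neighbours were 3 low non-coding transcripts. ENSG00000264578 lies wholly within GPAT4 exons on the opposite strand. Strand handling is not given, so it is unknown whether its reads were separated from those of GPAT4. The transcript was listed at 0, 106 and 0 in siMNX1 replicates 1 to 3, against 104, 44.0 and 107 in siNT replicates 1 to 3. The value in siMNX1 replicate 2 was close to those of siNT replicates 1 and 3, and the transcript was not called (limma, adjusted p = 0.184), but without that library it was called lower (limma, adjusted p = 0.000231). ENSG00000253174, opposite GINS4, and ENSG00000260588, inside an ANK1 intron, were not called either (limma, adjusted p = 0.694 and 0.951).

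**Figure D3:**
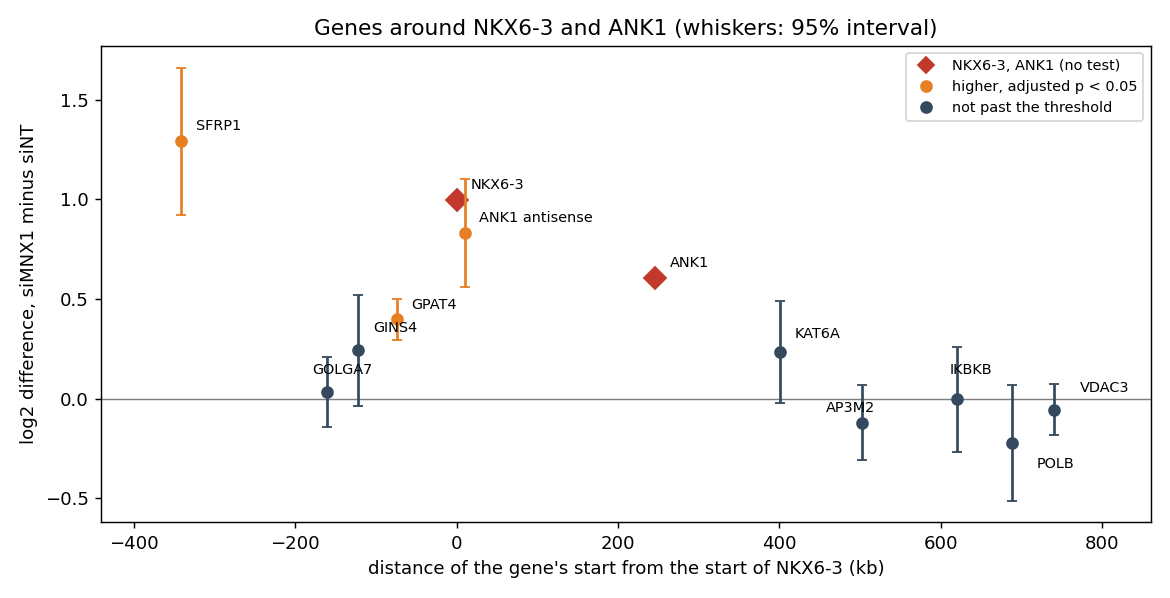
Log2 difference (siMNX1 minus siNT) with 95% intervals for genes within 500 kb of NKX6-3 or ANK1, placed by the distance in kb of their start from the start of NKX6-3. SFRP1 (1.29), the ANK1 antisense transcript (0.83) and GPAT4 (0.40) are the tested genes past the threshold, NKX6-3 and ANK1 carry no test, and 3 low non-coding transcripts with means under 100 are not drawn.

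Other NK homeobox genes were measured in small number. The list held 13 besides NKX6-3, of which 4 were measured, and limma called 0 of them, with 0 at an unadjusted p under 0.05. With 3.32% of all genes called, a list of 4 says little about the family. NKX6-1, the beta cell relative, had 109, 118 and 78.6 normalized counts in siMNX1 replicates 1 to 3, against 114, 112 and 96.1 in siNT replicates 1 to 3. The groups overlapped (log2 difference -0.09, limma, adjusted p = 0.825). NKX2-2, which keeps beta cells from other islet fates, averaged 1752 ± 101 in siMNX1 and 1877 ± 54.9 in siNT (SD, n = 3 each; log2 difference -0.10, limma, adjusted p = 0.408).

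By normalized counts per kilobase of exon, NKX6-3 stood far above NKX6-1, the other NK6 gene measured. NKX6-3 was at 114, 120 and 163 times the level of NKX6-1 in siMNX1 replicates 1 to 3. The ratios were 59.6, 57.1 and 67.0 in siNT replicates 1 to 3. The difference by which NKX6-3 was chosen enters this contrast of ratios. Among 84 measured genes with homeobox in their description, a set chosen after values were seen, NKX6-3 ranked 1 per kilobase in siMNX1 and 2 in siNT. PDX1, an activator of the insulin gene, held the other of these places, with 3285 normalized counts per kilobase in siMNX1 and 3396 in siNT, beside 4250.1 in siMNX1 and 2125 in siNT for NKX6-3. MNX1 stood at 424 per kilobase in siMNX1 and 481 in siNT.

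Of the ankyrins and spectrins other than ANK1, 7 of 9 were measured and limma called 0, where 3.32% of all genes were called. At an unadjusted p under 0.05, 3 of the 7 were higher and 0 lower, where 9.81% of all genes were higher and 8.56% lower. Their median log2 difference was 0.26, where all genes had -0.00045, and it was 0.15 without siMNX1 replicate 2. ANK2, the ankyrin of heart and neurons, averaged 2616 ± 447 in siMNX1 and 2035 ± 140.1 in siNT (log2 difference 0.35, limma, adjusted p = 0.114). ANK3, the ankyrin of the axon initial segment, averaged 772 ± 105 in siMNX1 and 591 ± 47.1 in siNT (log2 difference 0.38, limma, adjusted p = 0.091). SPTBN1, the widely expressed beta spectrin, had a log2 difference of 0.26 (limma, adjusted p = 0.159) and its partner SPTAN1 one of -0.06 (limma, adjusted p = 0.645). ANK2, ANK3 and SPTBN1 were each highest in siMNX1 replicate 2, and without that library their log2 differences were 0.22, 0.29 and 0.15. Their unadjusted p was then 0.0121, 0.0191 and 0.0369 (limma), and none was called (limma, adjusted p = 0.145, 0.181 and 0.241). Per kilobase of exon, ANK1 averaged 247 in siMNX1 and 162 in siNT, ANK2 144 in siMNX1 and 112 in siNT, and ANK3 30.1 in siMNX1 and 23.1 in siNT.

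**Figure D4:**
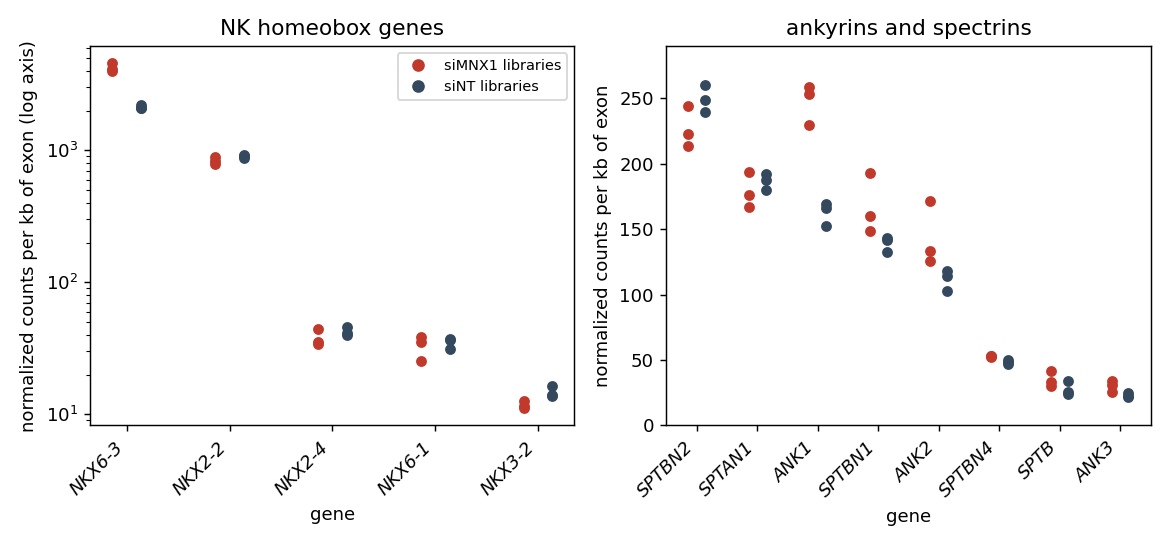
Normalized counts per kb of exon in each library for the measured NK homeobox genes (left, log axis) and the ankyrins and spectrins (right, linear axis), with siMNX1 libraries in red to the left of siNT libraries in dark blue. NKX6-3 and ANK1 are the genes of these lists chosen for their difference, NKX6-3 lies above NKX6-1 in every library, and ANK1 averages 247 in siMNX1 and 162 in siNT.

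Of 16 measured partners of the spectrin skeleton (of 21), 1 was higher and 1 lower by limma, beside 1.99% higher and 1.33% lower over all genes, with a median log2 difference of -0.00028. TMOD1, which caps actin filaments, rose to 1137 ± 18.5 in siMNX1, against 901 ± 58.5 in siNT (limma, adjusted p = 0.026). EPB41L3, a relative of protein 4.1, fell to 1741 ± 62.4 in siMNX1, against 2206 ± 108 in siNT (limma, adjusted p = 0.0145). With each library left out in turn, TMOD1 passed in 1 of 6 cases, that without siNT replicate 2 (limma, adjusted p from 0.0353 to 0.12). The EPB41L3 call ended without siMNX1 replicate 1 (limma, adjusted p = 0.0514), siNT replicate 1 (0.058) or siNT replicate 3 (0.0816). Both calls ended without a variance trend (limma, adjusted p = 0.096 for TMOD1 and 0.0882 for EPB41L3).

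Of 21 measured membrane proteins known to bind an ankyrin (of 29), 3 were higher and 0 lower by limma, beside 1.99% and 1.33% over all genes. At an unadjusted p under 0.05, 4 were higher and 2 lower, where 9.81% of all genes were higher and 8.56% lower. The median log2 difference was -0.0034. The calcium release channel gene ITPR1 rose to 452 ± 56.5 in siMNX1, against 300.03 ± 7.85 in siNT (log2 difference 0.58, limma, adjusted p = 0.0174). Its more abundant relative ITPR3 averaged 3673 in siMNX1 and 4177 in siNT (log2 difference -0.19, limma, adjusted p = 0.242). ITPR2 had a log2 difference of 0.14 (limma, adjusted p = 0.687). ITPR3 and ITPR2 were named after their values were seen. The adhesion molecule gene NRCAM rose to 3762 ± 522 in siMNX1, against 2675 ± 63.7 in siNT (log2 difference 0.48, limma, adjusted p = 0.0198). CD44, the hyaluronan receptor gene, rose to 2576 ± 246 in siMNX1, against 1911 ± 126 in siNT (log2 difference 0.43, limma, adjusted p = 0.0204). The ITPR1 call ended without siNT replicate 1 (limma, adjusted p = 0.0551), 2 (0.0601) or 3 (0.0848). The NRCAM call ended without siMNX1 replicate 3 (limma, adjusted p = 0.0565) or siNT replicate 1 (0.0676), 2 (0.062) or 3 (0.0945). The CD44 call ended without siMNX1 replicate 3 (limma, adjusted p = 0.0585) or siNT replicate 1 (0.059) or 3 (0.102). Without a variance trend all 3 calls ended (limma, adjusted p = 0.0703 for ITPR1, 0.127 for NRCAM and 0.122 for CD44).

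Of 11 measured genes of the antral stomach and its endocrine cells (of 23), 2 were higher and 0 lower by limma, beside 1.99% and 1.33% over all genes, with a median log2 difference of -0.05. SST, described above, was among the higher genes. GAST, which encodes gastrin, was not among the measured genes.

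Genes by which other type 2 diabetes loci are commonly named passed the test at close to the share of all genes. Of 53 measured (of 64), 2 were higher and 0 lower by limma, so 3.77% were called, beside 3.32% of all genes (1.99% higher and 1.33% lower). At an unadjusted p under 0.05, 8 were higher and 4 lower, where 9.81% of all genes were higher and 8.56% lower. The median log2 difference was 0.06. HHEX, a factor of delta cells, rose to 484 ± 24.4 in siMNX1, against 54.1 ± 10.6 in siNT (log2 difference 3.16, limma, adjusted p = 9.62e-06). TP53INP1, a stress response gene, rose to 459 ± 36.4 in siMNX1, against 321 ± 29.4 in siNT (log2 difference 0.52, limma, adjusted p = 0.0252), and with each library left out in turn it passed in 1 of 6 cases, that without siMNX1 replicate 3 (limma, adjusted p from 0.0432 to 0.0944). The TP53INP1 call also ended without a variance trend (limma, adjusted p = 0.0848).

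**Figure D5:**
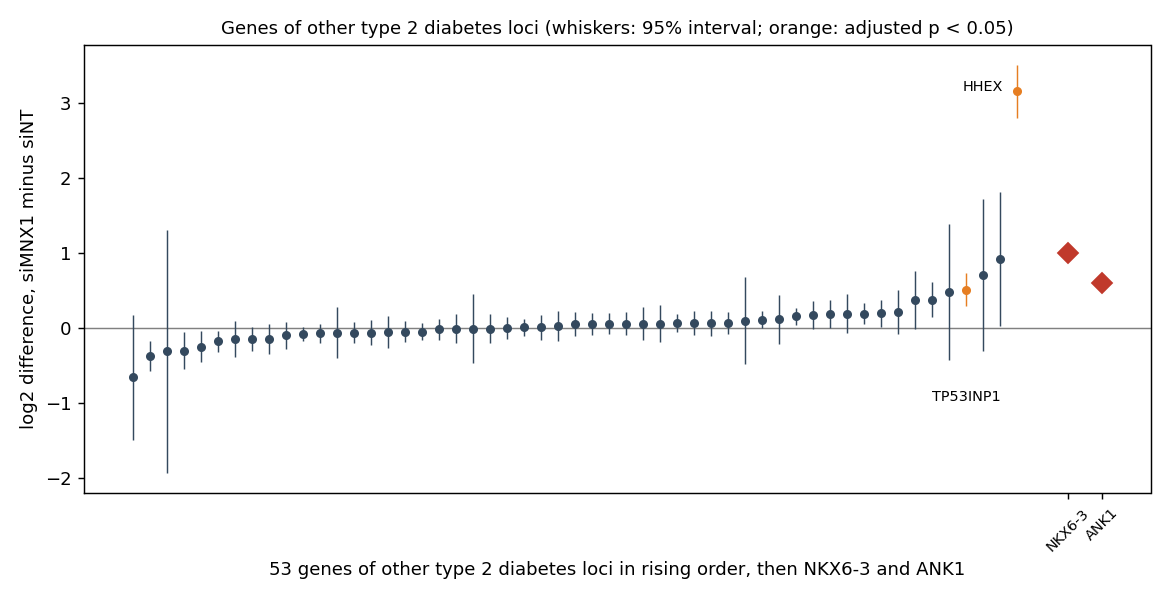
Log2 difference (siMNX1 minus siNT) with 95% intervals for 53 genes of other type 2 diabetes loci in rising order, with NKX6-3 and ANK1 at the right as diamonds without a test. HHEX (3.16) and TP53INP1 (0.52) are past the threshold, and the median of the 53 genes is 0.06.

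The profiles closest to each member were then found by the root mean square distance between log2 profiles over the 6 libraries, each centred on its own mean, among 12492 genes with a symbol and a mean of at least 50. The difference by which NKX6-3 and ANK1 were chosen enters this distance. For NKX6-3 the 5 nearest included the leukotriene hydroxylase gene CYP4F3 (distance 0.084), the phosphodiesterase gene PDE11A (0.090), the sodium channel modulator gene FGF14 (0.104) and the actin-binding protein gene RAI14 (0.120). CYP4F3, as an example, averaged 825 in siMNX1 and 411 in siNT. For ANK1 they included the polymerase subunit gene POLD4 (0.048), the short-chain fatty acid receptor gene FFAR2 (0.051), the secreted granule protein gene VGF (0.051) and the adhesion receptor gene ADGRF3 (0.057). VGF averaged 599 in siMNX1 and 377 in siNT.

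The neighbour GPAT4 was not among these by distance, its difference being smaller. By Pearson correlation of the same profiles over the 6 libraries, which ignores size, it ranked 3 for NKX6-3 (r = 0.996), a description over points that share their groups.

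Few markers of the other cell types that express these genes or adjoin beta cells were measured. Of the 16 red cell markers listed, 0 were measured. Of 11 skeletal muscle markers 3 were measured, summing to 384 to 486 normalized counts in siMNX1 libraries and 431 to 548 in siNT libraries. Limma called 0 genes among these 3, among 3 markers of acinar cells, 6 of duct cells and 4 of stromal, endothelial or immune cells. At an unadjusted p under 0.05 the 4 lists gave 0, 0, 2 and 2 genes, where 9.81% of all genes were higher and 8.56% lower. The most abundant of each were TNNT3 (log2 difference -0.24) and TTN (-0.15), CPA1 (-0.01) and AMY2B (0.42), KRT8 (-0.04) and KRT19 (0.19), and CD74 (-0.18) and CD68 (-0.20). The other stromal markers measured, COL1A1 (0.32) and PDGFRB (0.33), differed in the other direction at low levels. Among duct markers KRT18 had a log2 difference of -0.26 (limma, adjusted p = 0.0578). These 3 genes were named after their values were seen.

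Some delta and beta cell markers passed the test, in both directions, where 3.32% of all genes did. Of 5 measured delta cell markers (of 7), SST and HHEX were higher and RBP4 lower (log2 difference -0.96, limma, adjusted p = 0.000451), and the list summed to 2001 to 2099 normalized counts in siMNX1 libraries and 1412 to 1447 in siNT libraries. Of 13 beta cell markers 4 were higher and 2 lower by limma. The higher were CHGA (log2 difference 0.47), PCSK2 (0.56), MAFA (0.56) and PCSK1 (0.40), and the lower G6PC2 (-0.36) and IAPP (-1.84). MAFA and PCSK1 were named after their values were seen, and were not followed one by one through left-out libraries and other settings. IAPP was low in both groups, at 15.3 ± 3.76 normalized counts in siMNX1 and 57.8 ± 16.1 in siNT (SD, n = 3 each). It no longer passed without siNT replicate 1 (limma, adjusted p = 0.0583) or 2 (0.0671). Without a variance trend neither lower beta cell marker named passed (limma, adjusted p = 0.0949 for G6PC2 and 0.0529 for IAPP). The part of these cell markers in the levels of NKX6-3 and ANK1 was not tested.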

How the data were processed

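RNA was measured in 6 libraries, 3 of siMNX1 and 3 of siNT, made with a low-input kit (Ovation Solo) and ribosomal RNA depletion per the labels' protocols, although the molecule label reads polyA RNA. Which transcripts without a polyA tail were captured is therefore uncertain. The authors deposited normalized counts, a signal per gene that is never negative and has decimals. The submitters' processing notes name DESeq, RSEM 1.3.1, STAR 2.7.6a, DESeq2 1.26.0 and R 3.6.3 without their roles, with GRCh38 as build. Filtering, strand handling and the authors' annotation are unknown from these sources. In the search for a read step, at most 25.8% to 47.4% of a library's values below 10 came within 0.02 reads of a whole number, so reads were not recovered, depth is unknown and no count model or counting interval was used. No pair of libraries held the same value above 0 for any gene.

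Values were analysed as log2(value + 1), which understates changes of low genes, with limma 3.58.1 (R 4.3.3) and a variance trend, without a filter (lowest gene mean 6.57). Benjamini-Hochberg adjustment covered all 16792 genes, with a threshold of 0.05. The procedure was run on data simulated from the fitted model, which cannot test whether the model's assumptions hold here. Positions and exon lengths came from GENCODE 29 (GRCh38) for 16593 genes. Lengths are unions of all annotated exons, which can exceed those of the expressed forms. Genes were named by a rule: members, tested neighbours within 500 kb, MNX1, PERCC1, SST, NKX6-1, NKX2-2, up to 4 called genes a list or else the 2 most abundant, and the 5 nearest profiles. Members, lists and tests were chosen with earlier results of these data known. Python 3.11.15, pandas 2.3.3, numpy 2.4.6 and matplotlib 3.10.9 prepared data and plots. Alternatives were 2 other pseudocounts, 2 scalings, a filter, 2 variance models, a replicate block, other windows, another measure of likeness and each library left out. No sequence of these genes is printed, and 2 genes that the rule takes are not reported here.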

Additional observations from a re-analysis of the deposited data

How the results depend on the processing

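Over left-out libraries the log2 difference was 0.94 to 1.04 for NKX6-3 and 0.56 to 0.66 for ANK1. The gap between them was 0.29 to 0.47. With 3 libraries a group, leaving 1 out cannot move these values by 1 SD of the replicates, so their stability is no evidence. Other pseudocounts and scalings gave 0.994 to 1.000 for NKX6-3 and 0.601 to 0.607 for ANK1. The filter, variance models and replicate block leave these differences unchanged by design. The count of higher neighbours stayed at 3 except without a variance trend (2, GPAT4 at an adjusted p of 0.0529) and in a window of 250 kb (2), and that of lower neighbours ran from 0 to 1 over left-out libraries. Without a variance trend 131 genes were higher and 60 lower, where 335 and 223 had been called. Of the list genes 5 were higher and 1 lower, where 12 and 4 had been called. Among genes named by the rule 9 calls ended, those of CD44, EPB41L3, G6PC2, GPAT4, IAPP, ITPR1, NRCAM, TMOD1 and TP53INP1 (limma, adjusted p from 0.0529 to 0.127). Left-out libraries gave 133 to 257 higher and 64 to 179 lower genes, and 5 to 10 higher and 2 to 5 lower list genes, with fewer samples. Same-numbered libraries did not deviate together (correlations -0.078, -0.079 and -0.071). Such weak correlations cannot exclude that the replicates were paired. A replicate block gave 162 higher and 75 lower genes and ended the calls of CD44 (adjusted p = 0.0583), EPB41L3 (0.0636), ITPR1 (0.0555), TMOD1 (0.0723) and TP53INP1 (0.0826). Of the 5 nearest profiles, Pearson correlation shared 0 for NKX6-3 and 1 for ANK1. The distance takes in the size of a difference, which Pearson correlation ignores. Uncalled log2 differences changed sign over left-out libraries for CPA1 (-0.073 to 0.021), ENSG00000260588 (-0.22 to 0.28), GOLGA7 (-0.022 to 0.11), IKBKB (-0.13 to 0.072), KRT8 (-0.074 to 0.0079), NKX6-1 (-0.21 to 0.079) and TTN (-0.33 to 0.11). The depth is unknown, so the counting error of low transcripts could not be given.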
